A study of Mus musculus with 12 samples.

Results

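The genes described here are 10 genes of the dorsal telencephalic glutamatergic lineage: Emx1, Emx2, Pax6, Neurog2, Eomes, Neurod1, Neurod2, Neurod6, Tbr1 and Slc17a7. They were chosen by name, as factors and markers of the path from cortical progenitor to glutamatergic neuron, and every array probe whose RefSeq identifier belongs to one of them was taken. This gave 14 probes, out of 55681 probes that are not controls and 20887 genes with a named probe. Pax6, Eomes, Neurod1 and Tbr1 had 2 probes each and the other members had 1.

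In the embryonic dorsal telencephalon, the future cerebral cortex, radial glial progenitors that express Pax6, Emx1 and Emx2 give rise to glutamatergic neurons. Neurog2 drives neurogenesis in these progenitors, Eomes (also called Tbr2) marks the intermediate progenitors that follow, and Neurod1 is expressed as these cells leave the cycle. Neurod2, Neurod6 and Tbr1 are transcription factors of the postmitotic cortical neuron, and Slc17a7 encodes VGLUT1, the transporter that loads glutamate into synaptic vesicles.

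Neurospheres were grown from the telencephalon of C57BL/6 mouse embryos at day 13 and differentiated for 7 days. WT neurospheres came from embryos without transgenes, and APP_WT, BK_APP and HOE_APP neurospheres all came from APPswe/PS1dE9 embryos, which carry mutant transgenes of amyloid precursor protein and presenilin 1 directed to neurons of the central nervous system and serve as a model of familial Alzheimer's disease. APP_WT neurospheres were left untreated, whereas BK_APP neurospheres received bradykinin (BK), the agonist of the kinin B2 receptor, and HOE_APP neurospheres received HOE-140, a peptide antagonist of that receptor, each at 1 µM on days 0, 3 and 6 of differentiation. The comparisons, 3 in number, set APP_WT against WT and each of BK_APP and HOE_APP against APP_WT, and each was measured on 4 2-color Agilent arrays, 1 for each independent biological replicate, with both conditions on every array and the dyes swapped on arrays 3 and 4. The time in suspension before differentiation is given differently by the labels and the methods. On every HOE_APP array both channels carry the same treatment label, so the direction of all HOE_APP values, taken from the first-channel labels, the titles and the array layout used for BK_APP, is likely only.

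The scanner software flagged 45.2% to 60.1% of spots in a channel as well above background. Tests were limited to the 29361 probes with this flag in 1 condition on 3 or more arrays of some comparison. All values below are log2 ratios within an array, or log2 fold changes fitted to them with limma over the 12 arrays, and p-values were adjusted after Benjamini and Hochberg for all 29361 probes. An offset of 50 intensity units was added after background correction, which makes the fold changes of dim probes smaller. The 4 arrays with WT lay on 1 slide and the 8 treatment arrays on another. A difference between these sets of arrays therefore cannot be told apart from slide, although both conditions of a ratio shared an array. The number of arrays limits the precision of every value.

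All 10 members had a tested probe, and 12 of the 14 probes were tested. The main probe of each member, that with the highest mean intensity, was well above background in 24 of 24 channels for Emx1, Emx2, Pax6, Eomes, Neurod2, Neurod6 and Tbr1, in 23 for Slc17a7, in 15 for Neurod1 and in 10 for Neurog2. Detection was also read for other genes. Of 20 further factors of cortical projection neurons, 19 were well above background on all 4 WT arrays, as were 15 of 15 pan-neuronal genes and 17 of 20 genes of the ventral telencephalic GABAergic lineage. So were 10 of 10 astrocyte genes and 10 of 11 oligodendrocyte genes. Of the other dorsal lists, it was 7 of 12 genes of progenitor patterning and 11 of 15 of intermediate progenitors and nascent neurons. For glutamatergic transmission it was 12 of 15, and for Cajal-Retzius cells 3 of 7. Dorsal, ventral, astrocyte and oligodendrocyte genes were thus all detected in WT, with shares that differed between the dorsal lists.

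The promoters of the 5 members with the firmest differences between APP_WT and WT are shown here, since these are the genes on which the results turn. They are the 250 bases before the RefSeq transcript start, 5′ to 3′ on the strand of the gene, from RefSeq on GRCm38.p6. Capitals mark the E-box letters CANNTG, the letters that factors of the Neurog and Neurod family can bind, and the homeodomain letters TAATTA, both of which read the same on either strand. The windows are chr9:118477939-118478188 (plus strand) for Eomes, chr2:61804203-61804452 (plus strand) for Tbr1, chr7:45163671-45163920 (plus strand) for Slc17a7, chr11:98329646-98329895 (minus strand) for Neurod2 and chr6:55681264-55681513 (minus strand) for Neurod6.
Eomes: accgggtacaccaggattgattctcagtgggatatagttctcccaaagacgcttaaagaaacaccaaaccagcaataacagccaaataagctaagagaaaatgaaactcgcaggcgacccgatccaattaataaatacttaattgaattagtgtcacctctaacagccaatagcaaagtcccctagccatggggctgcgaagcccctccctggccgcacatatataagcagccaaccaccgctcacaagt
Tbr1: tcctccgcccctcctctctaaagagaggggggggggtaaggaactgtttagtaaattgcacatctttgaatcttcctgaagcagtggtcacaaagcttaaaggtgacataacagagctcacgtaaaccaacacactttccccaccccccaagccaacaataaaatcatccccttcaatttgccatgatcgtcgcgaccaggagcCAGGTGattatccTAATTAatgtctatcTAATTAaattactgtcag
Slc17a7: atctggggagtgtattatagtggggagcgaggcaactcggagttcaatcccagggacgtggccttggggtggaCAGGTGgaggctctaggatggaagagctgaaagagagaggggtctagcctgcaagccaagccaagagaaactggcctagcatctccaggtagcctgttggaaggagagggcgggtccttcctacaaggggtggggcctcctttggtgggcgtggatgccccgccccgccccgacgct
Neurod2: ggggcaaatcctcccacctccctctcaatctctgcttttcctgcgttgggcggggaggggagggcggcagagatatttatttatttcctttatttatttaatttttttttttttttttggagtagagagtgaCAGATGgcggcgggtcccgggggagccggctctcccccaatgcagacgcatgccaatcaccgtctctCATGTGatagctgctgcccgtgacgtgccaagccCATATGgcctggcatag
Neurod6: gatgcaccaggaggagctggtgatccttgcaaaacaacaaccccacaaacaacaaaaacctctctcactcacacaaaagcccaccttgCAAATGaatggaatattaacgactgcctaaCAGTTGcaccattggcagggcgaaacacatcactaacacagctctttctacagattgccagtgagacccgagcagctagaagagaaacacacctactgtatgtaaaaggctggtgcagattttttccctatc

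Neurod2 held 3 E-boxes, 118, 51 and 17 bases before the start, and Neurod6 held 2, 162 and 132 bases before it. Tbr1 and Slc17a7 held 1 each, with the same letters CAGGTG, and Eomes held none. Over the 11 windows of the 10 members, 7 held CANNTG, which 66.2% of the 32851 promoter windows of the same length did, and 1 window, that of Neurod2, held the form CAGATG, against 14.4% of all windows. Letters TAATTA occurred only in the Tbr1 window among the 11, where they stood 33 and 18 bases before the start (4.84% of all windows). The T-box letters AGGTGTGA, searched on both strands, were in none of the 11 windows and in 1.12% of all. These matches describe letters and not binding sites.

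The comparison of APP_WT with WT asked how neurospheres with the transgenes differ from those without. The members moved in opposite directions. Tbr1, Eomes and Slc17a7 were higher in APP_WT, by 1.45-fold to 1.49-fold, and Neurod2, Neurod6 and Pax6 were lower, by 1.39-fold, 1.32-fold and 1.12-fold. Thus 6 of 10 members passed a limma adjusted p of 0.05, 3 in each direction, while 18.5% of all tested probes did (11.6% higher and 7.00% lower). Over all probes the split depended on the scaling, with 62.3% of the calls higher here and 34.3% with the signals processed by the scanner software, whereas all 6 called members kept their direction and call with those signals. The same sign on all 4 arrays was seen for 3 members above 0 and 3 below, against 15.1% and 11.9% of all probes. SAM (significance analysis of microarrays) with rank products, which the methods name, called 5 members and 12.5% of all probes. The median log2 fold change of the members was −0.12, and that of all tested probes was 0.0039. In bulk RNA, fewer cells of a type and less RNA per cell cannot be told apart.

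**Figure D1:**
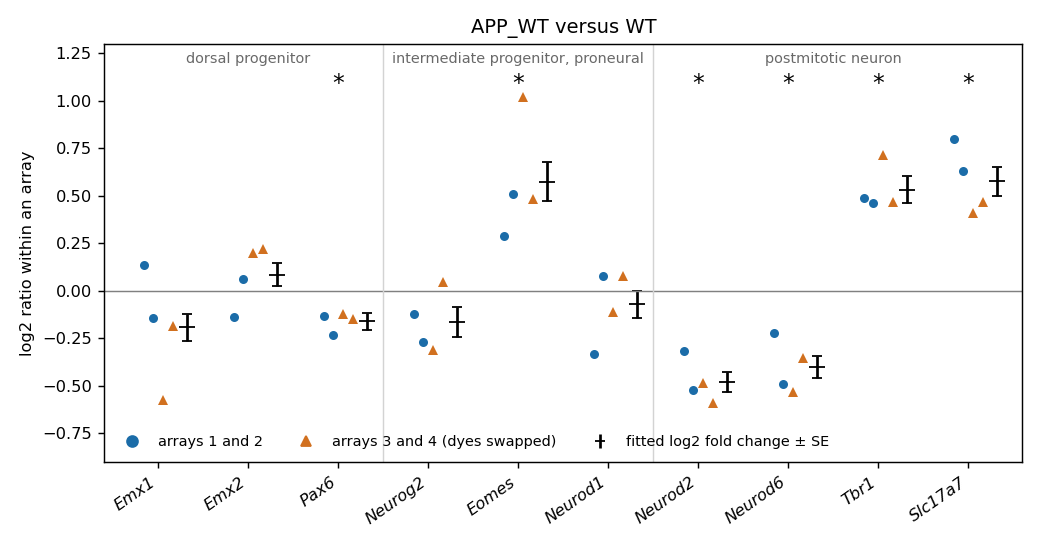
Log2 ratio of APP_WT over WT (y axis) for the main probe of each member (x axis, ordered by role). Circles are arrays 1 and 2, triangles are arrays 3 and 4 with swapped dyes, black bars are the fitted log2 fold change ± SE, and an asterisk marks a limma adjusted p below 0.05. Tbr1, Eomes and Slc17a7 lie above 0 on all 4 arrays, and Pax6, Neurod2 and Neurod6 lie below 0 on all 4.

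Among the dorsal progenitor factors, Pax6, the homeodomain factor of cortical radial glia, had log2 ratios of −0.13, −0.23, −0.12 and −0.15 on the 4 arrays. All 4 were below 0 and close together. The fitted log2 fold change was −0.16 ± 0.05 (limma adjusted p = 0.0357). Here and below, the SE comes from the fit over 12 arrays, of which 4 belong to a comparison. This call is the least firm of the 6, since it was lost when any 1 of the 4 arrays was left out, with a highest adjusted p of 0.186 over all alternatives, and it was not made by SAM with rank products. Emx1, a homeodomain factor that marks dorsal progenitors and the neurons they form, gave 0.14, −0.14, −0.58 and −0.19. It was below 0 on 3 of 4 arrays, and its log2 fold change of −0.19 ± 0.07 did not pass (limma adjusted p = 0.0978), although it did with the signals processed by the scanner software, at −0.49. Without array 3, the lowest, it was −0.09 (limma adjusted p = 0.476). Emx2, which patterns the caudal and medial cortex, gave −0.14, 0.06, 0.20 and 0.22, with a log2 fold change of 0.09 ± 0.06 (limma adjusted p = 0.364).

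Of the intermediate progenitor and proneural factors, Eomes was the member that changed. Its log2 ratios were 0.29, 0.51, 1.02 and 0.48, all above 0 but with a wide spread, and the fitted log2 fold change was 0.58 ± 0.10 (limma adjusted p = 0.00311). The level of its probe was 7.09 ± 0.18 (SD, n = 4) log2 intensity units in WT and 7.67 ± 0.32 in APP_WT, and the channels of both conditions did not overlap. The share of all tested probes whose channels did not overlap was not determined, here or for the members below. The second Eomes probe also gave 4 values above 0 (0.15, 0.27, 0.45 and 0.31), but it was not well above background on any WT array and only on 1 APP_WT array. With WT levels raised to the lowest level flagged as well above background, the mean level of this probe in APP_WT was 1.17-fold that in WT. This value carries no error. The fitted 95% interval was 0.15 to 0.44 on the log2 scale (limma adjusted p = 0.00871, lost without array 2 or array 3).

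Neurog2, the proneural factor upstream of Eomes and Neurod1, was dim, with 1 APP_WT array and 2 WT arrays well above background. Its log2 ratios of −0.12, −0.27, −0.31 and 0.05 gave a log2 fold change of −0.16 ± 0.08 that did not pass (limma adjusted p = 0.176). Neurod1, which acts after Neurog2 in newborn neurons, gave −0.33, 0.08, −0.11 and 0.08 with its main probe and −0.23, −0.26, −0.16 and −0.01 with its second. The main probe was on both sides of 0 and the second probe below 0 on all 4 arrays, and neither passed (limma adjusted p = 0.556 and 0.138). The mean levels of the main probe were 7.143 and 7.121 on the BK_APP arrays, where array 4 stood far above the others. Elsewhere they were 6.665 to 6.845, against 6.658 to 6.829 for the second probe over all comparisons. The unadjusted p of the second probe was 0.0412 by limma. Both genes were measured close to background, where the offset makes fold changes smaller.

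All 4 genes of the postmitotic glutamatergic neuron passed, and they split evenly. Tbr1, a T-box factor of early-born and deep layer neurons, had log2 ratios of 0.49, 0.46, 0.71 and 0.47. The ratios of arrays 1, 2 and 4 lay between 0.46 and 0.49 and array 3 lay above them, and the log2 fold change was 0.53 ± 0.07 (limma adjusted p = 3.57e-04). Slc17a7 had log2 ratios of 0.80, 0.63, 0.41 and 0.47, with a log2 fold change of 0.58 ± 0.08 (limma adjusted p = 3.87e-04). Arrays 1 and 2 were above arrays 3 and 4, so its size differed between the dye orientations, and its probe was well above background on 3 of 4 WT arrays.

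Neurod2 and Neurod6, bHLH factors that maintain the differentiated state of cortical neurons, went the other way. Neurod2 had log2 ratios of −0.32, −0.52, −0.49 and −0.59 and a log2 fold change of −0.48 ± 0.05 (limma adjusted p = 1.26e-04). Neurod6 had log2 ratios of −0.22, −0.49, −0.53 and −0.35 and a log2 fold change of −0.40 ± 0.06 (limma adjusted p = 7.87e-04). For both genes all 4 arrays were below 0 and array 1 was the least far from it. The channels of Neurod2 did not overlap, at 11.32 to 11.64 log2 intensity units on the 4 WT channels and 10.87 to 11.09 on the 4 APP_WT channels, nor did those of Tbr1, at 9.63 ± 0.16 (SD, n = 4) in WT and 10.16 ± 0.17 in APP_WT. Those of Neurod6 and Slc17a7 overlapped between arrays, although each array by itself had the same order.

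The calls of Eomes, Tbr1, Slc17a7, Neurod2 and Neurod6 were kept in all 15 alternatives that were run, from other background corrections and scalings to each array left out. The second probes of Pax6 and Tbr1 were not tested for differences, since they were well above background on too few arrays, and their ratios lay on both sides of 0.

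**Figure D2:**
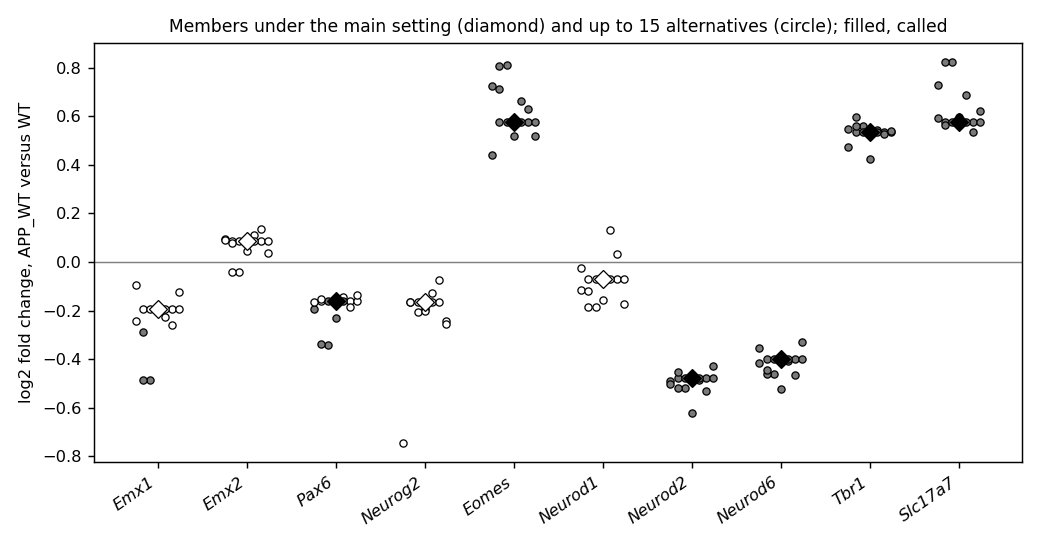
Log2 fold change of APP_WT versus WT (y axis) for the main probe of each member (x axis) with the main processing (diamonds) and with up to 15 alternatives (circles), where filled symbols passed the threshold of that setting. Eomes, Neurod2, Neurod6, Tbr1 and Slc17a7 stay filled and on their side of 0 throughout, and Pax6 is filled in the main setting and in 6 alternatives.

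**Figure D3:**
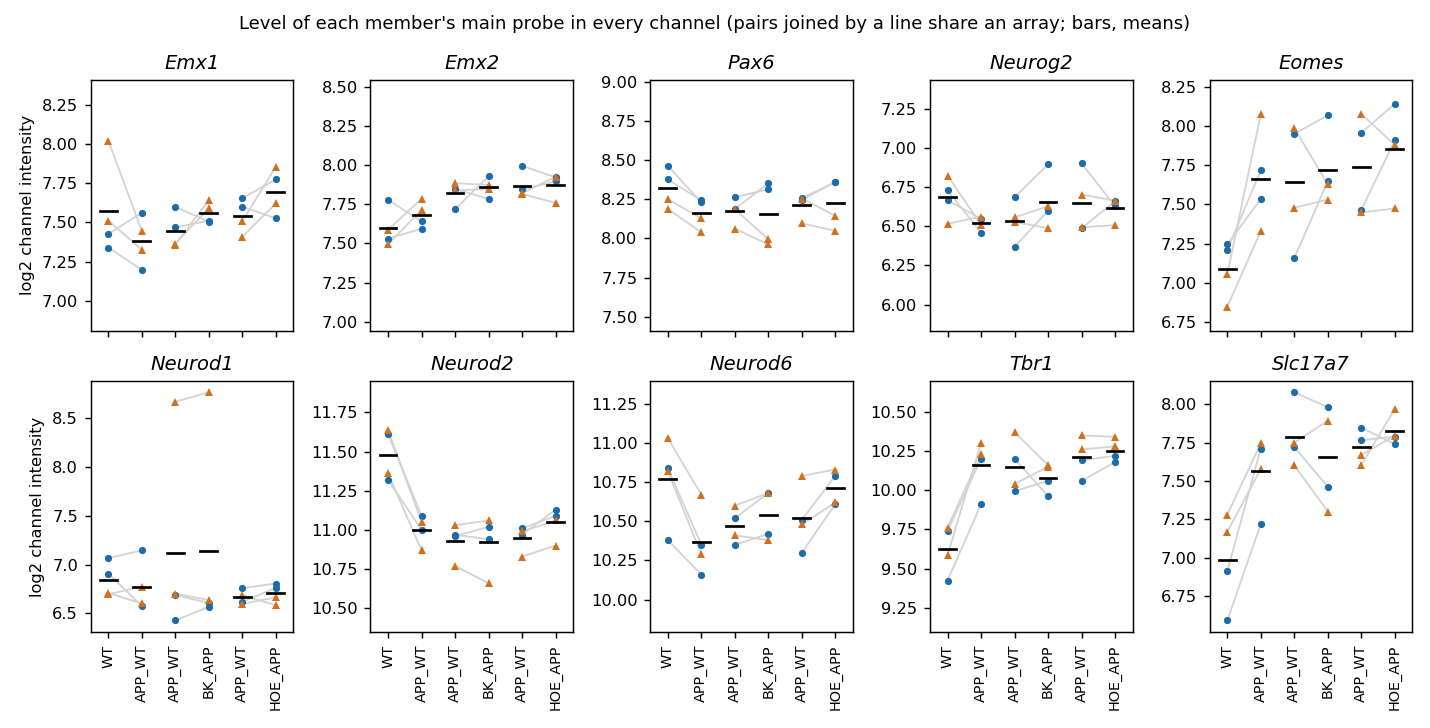
Log2 intensity (y axis) of the main probe of each member in every channel, by condition (x axis), where lines join both conditions of 1 array, circles are arrays 1 and 2, triangles are arrays 3 and 4 and black bars are means. The step between WT and APP_WT is seen for Eomes, Neurod2, Neurod6, Tbr1 and Slc17a7, and the levels of the untreated and treated APPswe/PS1dE9 neurospheres overlap for every member.

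Other genes of the same lineage were read from lists that hold no member. Of 20 tested factors of cortical projection neurons, 3 were higher and 8 lower in APP_WT, and the list had a median of −0.14 on the log2 scale. The largest increases were those of Crym, a thyroid hormone binding protein found in deep layer neurons, at 1.62 ± 0.10, and of Fezf2, the factor of subcerebral projection neurons, at 0.53 ± 0.07 (limma adjusted p = 1.92e-06 and 6.59e-04). Crym was the gene of the dorsal lists with the largest change, with log2 ratios of 2.19, 1.49, 1.36 and 1.42. The largest decrease was that of Bhlhe22, a bHLH factor of upper layer and area identity, at −0.57 ± 0.05 (limma adjusted p = 3.90e-05), which was below 0 on all 4 arrays. Other factors found in deep layer neurons went both ways. Foxp2 was higher at 0.31, and Etv1 and Bcl11b were lower at −0.49 and −0.24 (limma adjusted p = 0.016, 4.27e-04 and 0.0469).

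Of 12 tested genes of intermediate progenitors and nascent neurons, 1 was higher and 4 were lower, with a median of −0.16. Mfng, a modifier of Notch receptors, fell by 0.51 on the log2 scale and Insm1, a zinc finger factor of basal progenitor formation, fell by 0.47 (limma adjusted p = 9.21e-05 and 1.37e-04), while Nhlh2 rose by 0.28 (limma adjusted p = 0.00172, well above background on 1 WT array and 3 APP_WT arrays). These genes and Eomes, which mark overlapping stages, therefore did not share a direction. Of 9 tested genes of dorsal progenitor patterning, Gli3 was higher (0.25, limma adjusted p = 0.0301) and Dmrta1 and Nr2e1 were lower (−0.37 and −0.20, limma adjusted p = 0.00451 and 0.0459). With the arrays centered on their median instead of loess, the counts for this list were 0 higher and 4 lower. Lhx2, a factor of cortical identity, had a log2 fold change of −0.10 that did not pass (limma adjusted p = 0.363).

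Of 13 tested genes of glutamatergic transmission, 4 were higher and 2 lower, with a median of 0.06. Nrn1, an activity-regulated membrane protein, and Nrgn, a calmodulin binding protein of dendrites, had the largest increases (0.44 and 0.41, limma adjusted p = 2.75e-04 and 0.00590; for Nrgn array 2 gave no value). Homer1, a postsynaptic scaffold protein, and Gria2, an AMPA receptor subunit, fell by 0.31 and 0.31 on the log2 scale (limma adjusted p = 0.0172 and 0.0232). The other vesicular transporters, Slc17a6 and Slc17a8, had log2 fold changes of −0.03 and 0.06 (limma adjusted p = 0.750 and 0.540), so that Slc17a7 was the called transporter of the 3. Of 6 tested genes of Cajal-Retzius cells, the early neurons of the marginal zone, which also express Tbr1, Reln was higher (0.27, limma adjusted p = 0.0214, well above background on 1 WT array and 2 APP_WT arrays) and Calb2 was lower (−0.31, limma adjusted p = 0.00416).

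**Figure D4:**
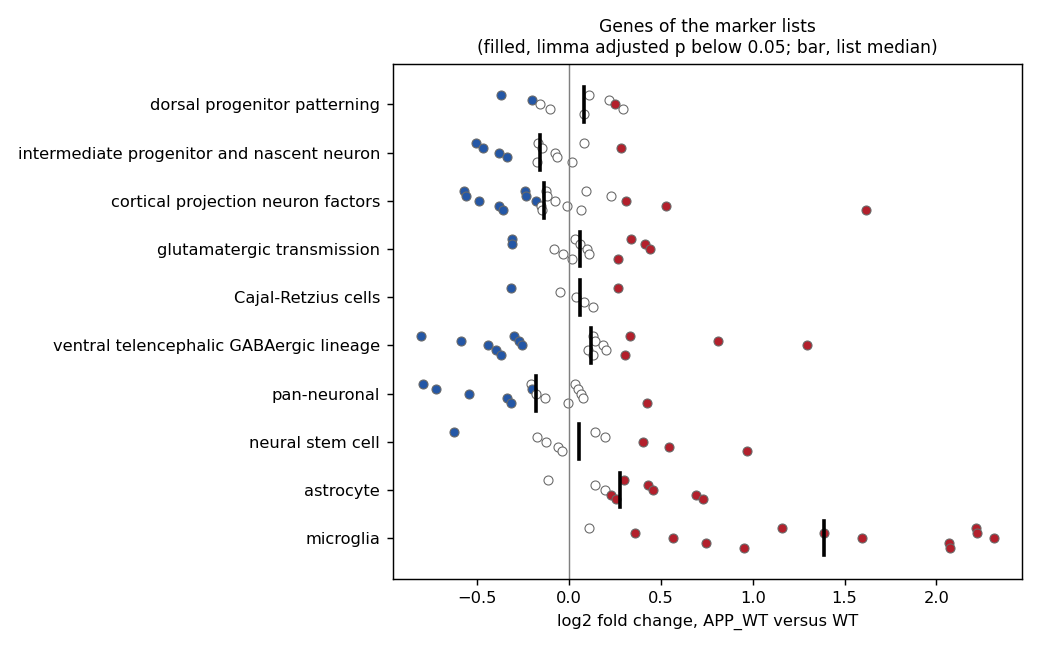
Log2 fold change of APP_WT versus WT (x axis) for the tested genes of 10 marker lists without members (y axis). Red and blue points passed a limma adjusted p of 0.05 as higher and lower, open points did not, and black bars are list medians. The cortical projection neuron list spans −0.57 to 1.62, and the microglia list lies above 0 with a median of 1.39.

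Genes of other cell types moved in the same comparison. Of 15 pan-neuronal genes, 1 was higher and 6 lower in APP_WT (median −0.18), with Nefm and Nefl, subunits of neurofilaments, at −0.79 ± 0.06 and −0.73 ± 0.05 and Syt1 at 0.43 ± 0.11 (limma adjusted p = 4.55e-06, 7.80e-06 and 0.0242). Of 18 tested genes of the ventral GABAergic lineage, 4 were higher and 8 lower. The neuropeptide genes Npy and Sst rose by 1.29 and 0.81 on the log2 scale, and the factors Sp8 and Dlx1 fell by 0.80 and 0.59 (limma adjusted p = 1.81e-07, 3.74e-06, 7.98e-05 and 1.05e-04). Centering on the median gave 2 higher and 8 lower for the ventral list, whose median turned from 0.12 to −0.04, and 1 higher and 9 lower for the pan-neuronal list, with a median of −0.33.

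Of 13 tested microglia genes, 12 were higher and 0 lower (unadjusted count 12 higher, 0 lower by limma), with a median of 1.39 and summed intensities of 14080 to 18060 in APP_WT and 9846 to 12010 in WT. Cx3cr1 and Tyrobp were 4.97-fold and 4.66-fold higher (limma adjusted p = 2.14e-08 and 2.01e-07), although in WT they were well above background on 2 and 1 of the 4 arrays, so that these folds rest partly on levels near background. Of the 15 genes of that list, 6 were well above background on all 4 WT arrays, and P2ry12 and Spi1 were so on none. Of 10 astrocyte genes 7 were higher, led by Aqp4 and Gfap at 0.73 and 0.69 (limma adjusted p = 8.74e-05 and 1.09e-04), with summed intensities of 147600 to 162300 in APP_WT and 109500 to 133800 in WT; centering on the median gave 3 higher and 1 lower. Of 10 stem cell genes 3 were higher and 1 lower, with Vim and Nes at 0.97 and 0.55 and Hes5 at −0.63 (limma adjusted p = 4.31e-06, 0.0256 and 5.96e-05). Centering on the median gave 3 higher and 3 lower for this list, and its median turned from 0.05 to −0.03. The part of these cell types in the values of the members was not tested.

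The comparison of BK_APP with APP_WT asked what BK changed in transgenic neurospheres. No difference of a member was detected. By limma 0 of 10 members passed the adjusted threshold and 0 had an unadjusted p below 0.05, where 0% of all tested probes passed the first and 4.47% the second, and SAM with rank products also called 0 members (2.41% of all probes). The log2 fold changes ran from −0.13 for Slc17a7 to 0.12 for Neurog2, 6 above 0 and 4 below, with a median of 0.03, and 47.4% of all tested probes were above 0. The 95% intervals of all members lay between −0.30 and 0.31, so that changes of the size seen between APP_WT and WT for Tbr1 or Slc17a7 lay outside them.

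No member had the same sign on all 4 BK arrays, as 5.10% (above 0) and 4.62% (below 0) of all probes did. Slc17a7 gave −0.26, −0.10, 0.14 and −0.30, and Tbr1 gave 0.06, −0.23, −0.22 and 0.10. Eomes gave 0.49, 0.12, −0.36 and 0.05, the widest spread of the members. Neurod2, the brightest probe of the list, lay between −0.11 and 0.06. Pax6 was above 0 on arrays 1 and 2 and below 0 on arrays 3 and 4 under both treatments, so that its sign followed the dye orientation. For Neurod1, array 4 of this comparison had 8.66 and 8.76 log2 intensity units in the untreated and treated channel against 6.43 to 6.70 on the other 3 arrays, and a log2 ratio of 0.09.

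**Figure D5:**
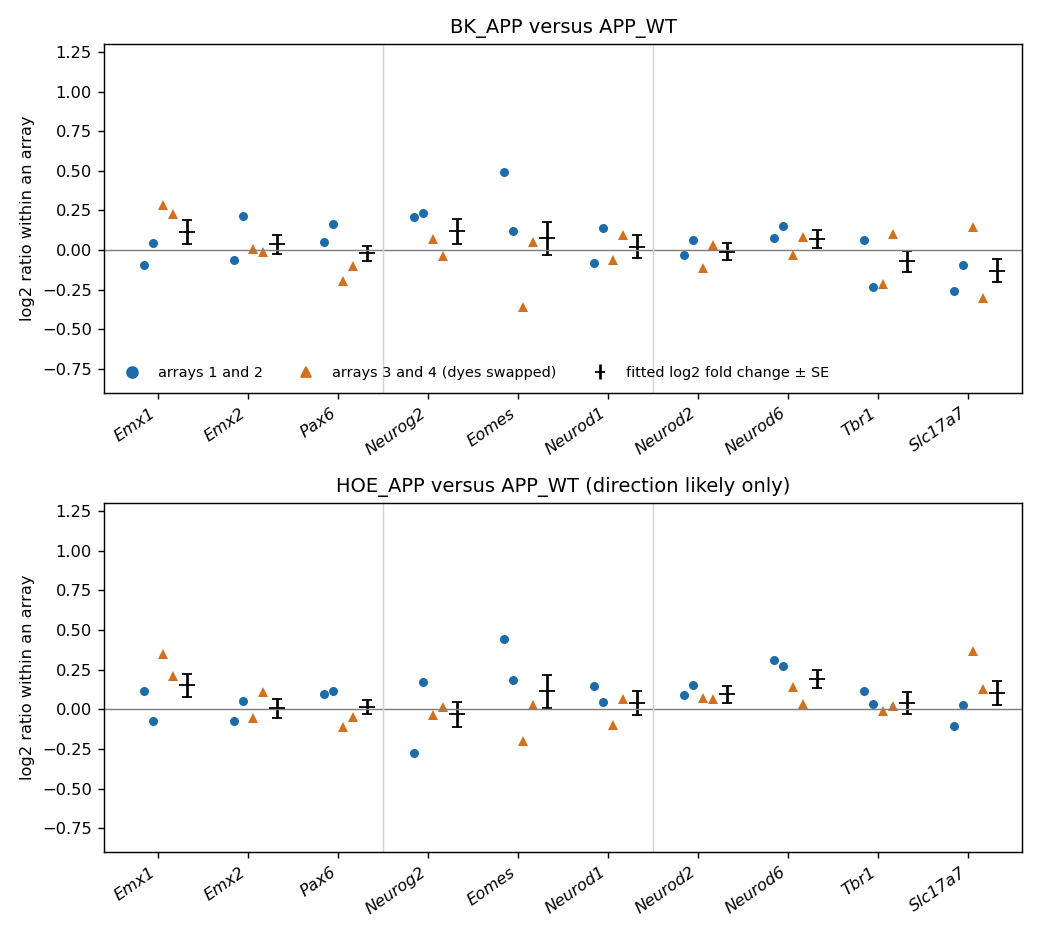
Log2 ratio (y axis) of BK_APP over APP_WT (upper panel) and HOE_APP over APP_WT (lower panel, direction likely only) for the main probe of each member (x axis). Circles are arrays 1 and 2, triangles are arrays 3 and 4 with swapped dyes, and black bars are fitted log2 fold changes ± SE. Fitted values lie between −0.13 and 0.19, and Neurod2 and Neurod6 are above 0 on all 4 HOE_APP arrays.

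HOE_APP was compared with APP_WT to learn what blocking the B2 receptor changed. By limma 0 of 10 members passed (0% of all tested probes), and 1 had an unadjusted p below 0.05 (5.03% of all tested probes). This was Neurod6, with log2 ratios of 0.31, 0.27, 0.14 and 0.04. All 4 were above 0 with arrays 1 and 2 higher, and the log2 fold change was 0.19 ± 0.06 (limma adjusted p = 0.924). SAM with rank products, at an unadjusted p of 0.05 each, called Neurod6 and no other member (2.96% of all tested probes). Neurod2 gave 0.09, 0.15, 0.07 and 0.06, also all above 0, with a log2 fold change of 0.09 ± 0.05 (limma adjusted p = 0.924). The same sign above 0 on 4 of 4 arrays was seen for 2 of 10 members and for 5.68% of all probes.

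Each of the remaining members had log2 ratios on both sides of 0 over the HOE_APP arrays. Of the 10 fitted values, 9 were above 0, where 50.1% of all tested probes were, and the median was 0.07. Emx1 had the next largest value, 0.15 ± 0.07, with log2 ratios of 0.12, −0.07, 0.35 and 0.21 (limma adjusted p = 0.924). Slc17a7 gave −0.11, 0.02, 0.37 and 0.13, and Tbr1 gave 0.11, 0.03, −0.01 and 0.02. The 95% intervals of all members lay between −0.20 and 0.34. If the second-channel labels were the right ones, every sign of this comparison would turn.

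BK and HOE-140 are both peptides and were given at the same dose and times, so their log2 fold changes were compared directly for 10 members, with p-values adjusted over all probes. They share the untreated APP_WT group. By limma, 0 of 10 differences BK_APP minus HOE_APP passed and 0 had an unadjusted p below 0.05 (0% and 2.50% of all tested probes). The largest was that of Slc17a7, with −0.15, −0.12, −0.22 and −0.43 between arrays of the same number and −0.23 ± 0.11 in the fit (95% interval −0.47 to 0.0037, limma adjusted p = 1.0). In the limma fit over the 8 treatment arrays with the replicate number as a block, which pairs these arrays, it was −0.23 ± 0.07 with a 95% interval of −0.40 to −0.07 that left out 0 (unadjusted p = 0.0107, limma adjusted p = 0.436). In that fit 1 of 10 members, Slc17a7, had an unadjusted p below 0.05, as 8.84% of all tested probes did, and 0 passed the adjusted threshold (0% of all tested probes). All 4 genes of the postmitotic neuron had a difference below 0, from −0.23 to −0.10, as did 51.4% of all tested probes. This was not particular to them. Below 0 were also 15 of 15 pan-neuronal genes, 15 of 20 factors of cortical projection neurons and 14 of 18 ventral genes. For stem cell and microglia genes it was 3 of 10 and 0 of 13. The 95% intervals over the members ran from −0.47 to 0.39, or from −0.40 to 0.32 with the block. Had the HOE_APP ratios run the other way, the difference of Slc17a7 would be −0.03 and that of Neurod6 0.26 (limma adjusted p = 0.605).

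Of 60 tested genes in the 5 lists of the dorsal lineage, limma called 0 under either treatment. The smallest unadjusted p-values were those of Mef2c and Calb2 for BK_APP, with log2 fold changes of −0.16 and −0.17 (limma adjusted p = 0.967 for both), and those of Nhlh2 and Reln for HOE_APP, with 0.15 and 0.19 (limma adjusted p = 0.924 for both). Calb2 was below 0 and Nhlh2 above 0 on all 4 arrays. For the difference between the treatments they were those of Tle4 (−0.28) and Reln (−0.26), with limma adjusted p-values of 1.0. All 15 pan-neuronal genes had values below 0 in BK_APP (median −0.09), where 52.6% of all tested probes did, and 0 passed by limma while 2 had an unadjusted p below 0.05. With the arrays centered on their median the sign was no longer shared, with 5 of the 15 above 0, 10 below and a median of −0.01. By limma 0 then had an unadjusted p below 0.05. The median of all tested probes was 0.04 with that centering and −0.0046 with the main processing.

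The genes whose log2 ratios over the 12 arrays were most like those of a called member, among 14150 ranked genes, are given as a description, since the arrays of 1 comparison share their conditions. For Neurod2 the first was Neurod6 (Pearson r = 0.956, n = 12 arrays), followed by Fst and Hdac2, and for Neurod6 they were Bend5, Hmgb3 and Neurod2. For Tbr1 the first was Fezf2 (r = 0.961), followed by Slc38a1 and Lrrc8a. Eomes was most like Mpv17 (r = 0.971), Nfic and Pcdhga9, Slc17a7 was most like Vwa1 (r = 0.959), Plcd1 and Bcl7c, and Pax6 was most like Tuba1a (r = 0.955), Helq and Zc3h15. Only Neurod2 and Neurod6 among the members named each other.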

How the data were processed

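The authors deposited the output of Agilent Feature Extraction for 12 2-color arrays, with the median intensity of every spot and its local background, and a table of log2 ratios. The deposited log10 ratio of the scanner files is that of the processed intensities, which served as an alternative, as did the deposited table. The table held nearly the same ratios (smallest r = 0.999 over the arrays), so these alternatives are not independent of each other. The file headers name another software version than the methods. Median signals were corrected by normexp (offset 50) and loess (span 0.3) with limma 3.58.1 (R 4.3.3, with statmod 1.5.0 and version 1.17.8 of data.table). Of 62976 spots, 3671 controls were dropped, and repeated spots of a probe were averaged. Ratios were turned to APP_WT over WT, or treated over APP_WT. One limma model gave each comparison a mean and a dye coefficient (6 residual degrees of freedom). Tests were two-sided at an adjusted p of 0.05 and were tested on simulated data. The study called genes with SAM and rank products at a p of 0.05, and both were rewritten here with an unadjusted p of 0.05 each. Channel levels are log2 intensities after Aquantile scaling and are set only against the same probe.

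Probes were named by RefSeq identifier through a gene table of another assembly than the array design, used for names only. The members and the 14 lists without members were chosen with earlier results of these data known, so that lists carry counts and medians and no test. The text names every member, the 2 largest called increases and decreases of a list in APP_WT versus WT, and the 2 smallest unadjusted p of the dorsal lists for each treatment contrast, with some items not reported here. Lhx2, Foxp2, Etv1, Bcl11b, Slc17a6, Slc17a8, P2ry12 and Spi1 were named after their values were seen. Same-numbered BK_APP and HOE_APP arrays correlated over probes after their comparison means were removed (r from 0.51 to 0.67). They also shared a dye orientation, and r was 0.42 to 0.43 once dye means were removed too. Replicate numbers were taken to pair these arrays. APP_WT versus WT arrays had negative values with them (r from −0.60 to −0.30, and −0.51 to −0.20 without dye means). There APP_WT was the numerator and the dyes ran the opposite way, and the source of these values was not tested. Within a treatment comparison, log2 ratios of arrays with opposite dye orientation also correlated negatively (r from −0.32 to −0.11). The p-values rest on a spread between replicates that the model pooled over the 3 comparisons and limma moderated. A member therefore had the same SE in each comparison. A separate fit for each comparison was among the alternatives. Protein and probe sequences were not used here.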

Additional observations from a re-analysis of the deposited data

Results flagged for a closer look

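Tbr1 in APP_WT versus WT was marked because array 3, with a log2 ratio of 0.71, stood apart from the other 3 arrays at 0.46 to 0.49. Its gap to the nearest of them was 0.911 of the whole range, above the 95% critical value of Dixon's test. Without array 3 the log2 fold change was 0.47 and still passed (limma adjusted p = 0.00435). Of 36 sets of 4 arrays that were examined over the tested probes of the members, this was the only one so marked, and chance marks about 5%. No member passed the adjusted threshold for a difference between the treatments by limma, and none differed by opposite signs on every array.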

How the results depend on the processing

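Eomes, Tbr1, Slc17a7, Neurod2 and Neurod6 kept their direction and their call between APP_WT and WT under all 15 alternatives, with log2 fold changes of 0.44 to 0.81, 0.42 to 0.60, 0.54 to 0.82, −0.62 to −0.43 and −0.52 to −0.33. Pax6 kept its call in 6 of 15 and lost it in 9, namely without background correction, without the filter on dim probes, without the dye coefficient, with a separate fit for each comparison, by SAM with rank products, and without any 1 array. Emx1 passed as lower with the processed signals (−0.49), with the deposited table of nearly the same ratios (−0.48) and without replicate 4 (−0.29). It was −0.09 without replicate 3. The second Neurod1 probe passed with the processed signals (−0.57). The cause was not tested. SAM with rank products called 1 member higher in HOE_APP (Neurod6) where limma called 0. No member called in the main setting turned its sign in an alternative. Members not called there did in 4 of 58 cases for APP_WT versus WT, 14 of 147 for BK_APP and 7 of 149 for HOE_APP. These counts are for the main probes and leave out the setting that turned the direction of the HOE_APP ratios.

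Over all tested probes, 5446 passed between APP_WT and WT, 62.3% of them higher. The share higher was 34.3% of 7832 with the processed signals, 33.3% of 7605 with the deposited table and 36.4% of 5863 with median centering, and a separate fit gave 2371 calls, 79.1% higher. These scalings moved the median of all probes to between −0.08 and −0.07. When the replicate number was a block, 5373 probes passed between APP_WT and WT, and the block changed no call of a member. Over the 8 treatment arrays, where the numbers were taken to pair the arrays, the difference of Slc17a7 between the treatments was −0.23. Its interval left out 0, although the difference did not pass after adjustment (limma adjusted p = 0.436). With a single array left out, BK_APP versus APP_WT had 0 to 62 calls and HOE_APP versus APP_WT 0 to 9, none of them members. Neurog2, Neurod1 and the second Eomes probe lay close to background, which limits what could be detected for them.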
